A study of Mus musculus with 8 samples.

Results

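The genes described here carry out autophagy and lysosomal breakdown, measured in primary mouse hepatocytes with and without p16. They were given as a list of 39 gene symbols. Of these, 38 had a row of their own on the array, out of 22180 genes so named, and Optn was not analysed here. All 38 lay above the filter on dim genes, with both group means above it, so that none entered the test through 1 group alone. The list falls into 9 genes for the start of the autophagosome and its membrane supply, 6 conjugation enzymes, 5 ATG8 proteins, 2 measured cargo receptors, 2 transcription factors, 7 lysosomal enzymes, 3 lysosomal membrane proteins and 4 parts of the lysosomal proton pump.

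Hepatocytes, the parenchymal cells of the liver, came from p16+/+ mice and their p16-/- littermates, with 4 samples of each genotype and 1 array per sample. All samples first sat in a serum-containing medium (10% serum) with insulin at 100 nM and dexamethasone at 25 nM, were changed at 16 h to a medium of 1 mM glucose and 0.1% albumin for a further 8 h, and gave RNA at 24 h. The groups thus differ by genotype and share the low-glucose, serum-free period, and no samples kept in full medium were analysed here. The labels give neither the age, sex and strain of the mice nor the design of the deleted allele, and they do not say whether each sample came from its own animal, so the p-values reflect only how far these samples varied, which may be technical in part.

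Autophagy is the route by which a cell encloses its own cytoplasm in a double membrane, the autophagosome, and hands it to the lysosome for digestion. The ULK1 kinase complex starts the process when nutrients fall, a lipid kinase complex around Beclin 1 marks the site, ubiquitin-like conjugation attaches ATG8 proteins to the membrane, and cargo receptors bind both the cargo and ATG8. The lysosome then acidifies its lumen with a proton pump, the V-ATPase, and its hydrolases break the cargo down. In the liver this supplies amino acids and lipids during fasting. The kinase mTORC1 holds the pathway back in fed cells, and the transcription factors TFEB and TFE3 raise many of its genes through an E-box known as the CLEAR element.

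Values are log2 expression from RMA, so that 1 unit is a 2-fold difference, and changes are knockout minus wild type. Across all 15380 genes tested the median change was -0.02. The array has 1 row for Cdkn2a, the gene of p16, which read 4.16, 4.79, 4.48 and 4.68 in wild type replicates 1 to 4 and 4.28, 4.66, 4.27 and 4.91 in knockout replicates 1 to 4. The groups overlapped, and since it is not known whether this row lies in the deleted part, it does not check the genotype. In the leading principal component (47.5% of the variance) the knockout arrays stood apart from all wild type arrays, and in the next (17.9%) knockout replicate 4 stood apart at -25.2 against -8.91 to 14.6 in the other arrays.

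The same RNA also differed in markers of liver cell types. Hepatocyte markers were higher in the knockout for 10 of 14 tested genes and lower for none. Their summed linear levels were 38980 to 41490 in wild type and 47590 to 50060 in knockout arrays. The brightest of them, Alb, read 13.54 ± 0.03 and 13.57 ± 0.01 (SD, n = 4), close to the highest mean of any gene tested, 13.59. Whether a rise would register at that level was not tested. Endothelial markers were lower for 11 of 12, with sums of 1005 to 1135 in wild type and 369.7 to 421.8 in knockout. Of 13 tested Kupffer cell (macrophage) markers 11 were lower and 1, Cd68, was higher. The Kupffer sum without Cd68 ran from 423.1 to 437.6 in wild type and from 226.5 to 247.4 in knockout, and with it from 1853 to 2571 and from 2770 to 3232. Stellate cell markers were lower for 4 of 12 and higher for 1 (sums of 452.3 to 479.6 against 368.4 to 401.5), and none of the 4 tested markers of bile duct cells or the 4 of lymphocytes was called. No marker was listed at 0. In such bulk RNA, fewer cells of a type and less RNA per cell cannot be told apart, and the part of these shifts in the results that follow was not tested.

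Of the 38 autophagy and lysosome genes, 7 were higher in the knockout, 1 was lower and 30 did not pass the test (limma, Benjamini-Hochberg adjusted p under 0.05 over all genes). That is 18.4% higher and 2.63% lower, where 7.02% of all genes tested were called higher and 6.76% lower. The members were brighter than most genes tested, with a median level of 7.94 against 5.52. With the filter on dim genes raised to the 60th percentile, 11.2% of all genes tested were called higher and 11.4% lower, and the same 7 members were higher. That filter also adjusts over fewer genes, 10903. The share called by brightness at a fixed threshold was not examined. Unless another setting is named, shares of all genes given below are those of the main filter with all arrays. The 7 were Ulk1, Ulk2, Atg13 and Atg9a of autophagosome formation, the ATG8 gene Gabarapl1, and the pump genes Atp6v0d1 and Atp6v1a, and the 1 that fell was the cargo receptor gene Sqstm1. The largest change was that of Atg13, 0.83 on the log2 scale, so all 8 were below 2-fold. The median change over the 38 was 0.11, and 26 of them (68.4%) had a change above 0, as did 45.2% of all genes tested. The groups did not overlap for 14 of the 38 (36.8%), 13 higher and 1 lower in the knockout, where 20.2% of all genes tested had groups without overlap (9.13% higher and 11.1% lower). How many were called depended on single arrays. The number called higher was 9 when knockout replicate 4 was left out, where 8.05% of all genes tested were called higher. It was 3 when replicate 1 or 2 of either genotype was left out, where 4.97% to 5.28% of all genes were. Without knockout replicate 3 it was 4, where 5.37% of all genes were. The share of all genes called thus moved with the arrays too.

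**Figure D1:**
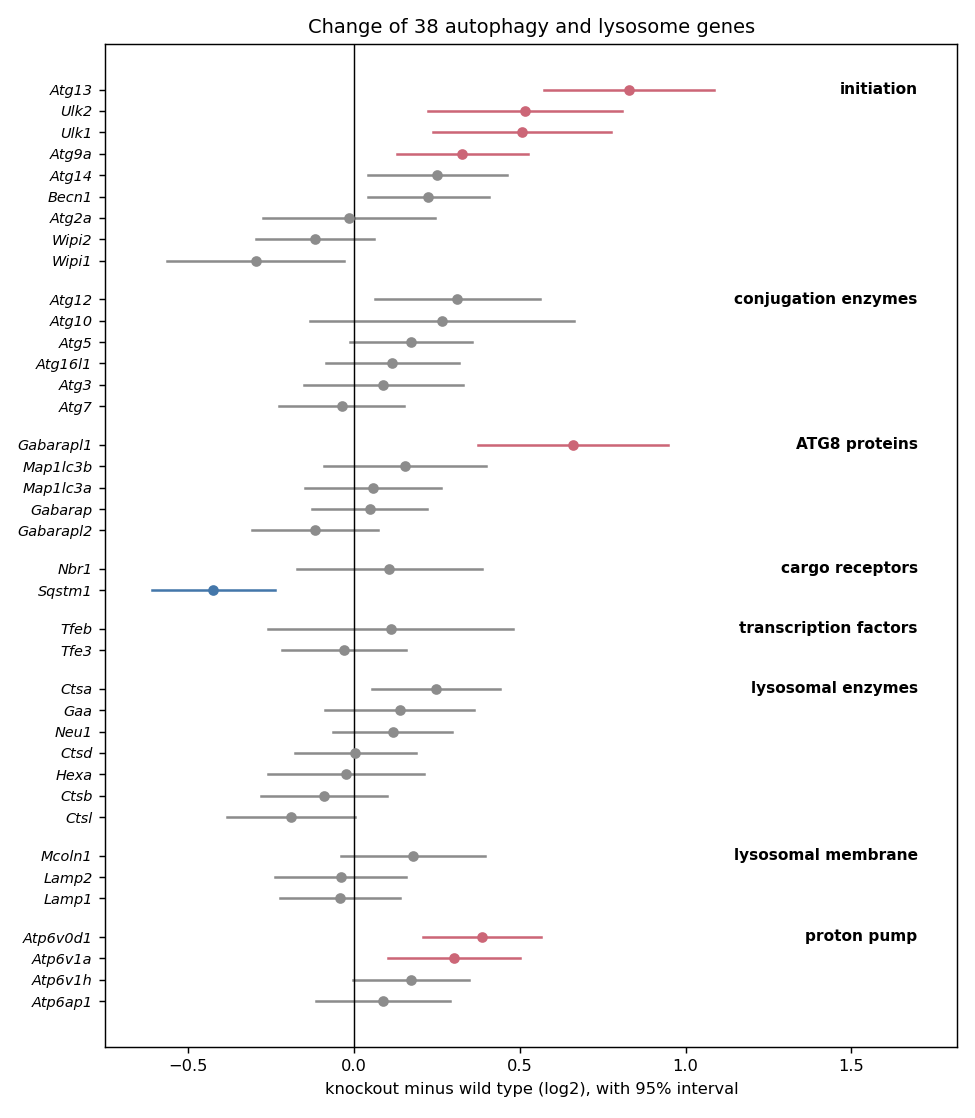
Change of each of the 38 genes (points) with its 95% interval (lines) on the log2 scale, knockout minus wild type, ordered within role groups; red marks genes called higher, blue the gene called lower and grey those without a call. The calls lie in initiation, the ATG8 proteins, the cargo receptors and the proton pump. The 7 lysosomal enzymes lie between -0.19 and 0.25. Of all genes tested 13.8% were called, and differences between role groups were not tested.

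Initiation held the most calls. Of its 9 genes 4 rose, 0 fell and 5 did not pass, where 7.02% of all genes rose and 6.76% fell, and the median change was 0.25. Of these 4 calls only that of Atg13 held in all 18 alternatives. Atg13, which encodes the adaptor that joins the ULK kinases to their scaffold, read 6.96, 6.70, 7.04 and 7.10 in wild type replicates 1 to 4 and 7.90, 7.79, 7.88 and 7.55 in the knockout replicates. Every knockout array was above every wild type array, by at least the gap from 7.10 to 7.55. Its change was 0.83 (SE 0.12, 95% interval 0.57 to 1.08, adjusted p = 7.54e-04), and it was called in each of the 18 alternative analyses.

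Ulk1, the gene of the kinase that starts autophagy, read 7.01, 7.17, 7.35 and 7.35 in wild type and 7.79, 7.87, 7.82 and 7.42 in knockout replicates 1 to 4. The groups were separated only narrowly, because knockout replicate 4 lay far below the other knockout arrays and just above the highest wild type ones. The change was 0.51 (SE 0.12, adjusted p = 0.0185), or 1.42-fold, and 0.61 without knockout replicate 4 (adjusted p = 0.00394). Its call ended when replicate 1 or 2 of either genotype was left out, with adjusted p-values of up to 0.0606.

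Ulk2, a second kinase gene of the same family, read 5.999, 5.99, 6.54 and 6.28 in wild type and 6.67, 6.88, 6.77 and 6.55 in knockout replicates 1 to 4. Wild type replicate 3 and knockout replicate 4 all but met, at 6.54 and 6.55. The change was 0.52 (SE 0.13, adjusted p = 0.0247), and the call ended when replicate 1 or 2 of either genotype or knockout replicate 3 was left out, at adjusted p-values of up to 0.0782.

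Atg9a encodes the membrane protein whose vesicles seed the growing autophagosome. It read 6.37, 6.41, 6.35 and 6.38 in wild type and 6.78, 6.81, 6.70 and 6.52 in knockout replicates 1 to 4, so the wild type arrays were close together and knockout replicate 4 was again the lowest of its group. The change was 0.33 (SE 0.09, adjusted p = 0.0334). Of the 8 analyses that each leave out 1 array, the call held in 1, the one without knockout replicate 4 (0.39, adjusted p = 0.00912), and it reached an adjusted p of 0.0991 in the others. It also ended with no filter on dim genes and with median centring.

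The other initiation genes did not pass. Becn1, which encodes Beclin 1, ran from 6.61 to 6.75 in wild type and from 6.85 to 6.998 in knockout, without overlap, with a change of 0.22 (SE 0.08, adjusted p = 0.105). Atg14, whose product directs the Beclin 1 complex to autophagy, ran from 5.71 to 5.88 and from 5.90 to 6.21, also without overlap (change 0.25, SE 0.10, adjusted p = 0.112). Wipi1, a reader of the lipid that this complex makes, had a change in the opposite direction, -0.30 (SE 0.12, adjusted p = 0.142), with groups that overlapped. The related Wipi2 had -0.12 (SE 0.08, adjusted p = 0.401). The lipid transfer gene Atg2a had -0.015 (SE 0.12, adjusted p = 0.958), a sign that turned to 0.084 without knockout replicate 4 and to 0.039 with array weights.

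**Figure D2:**
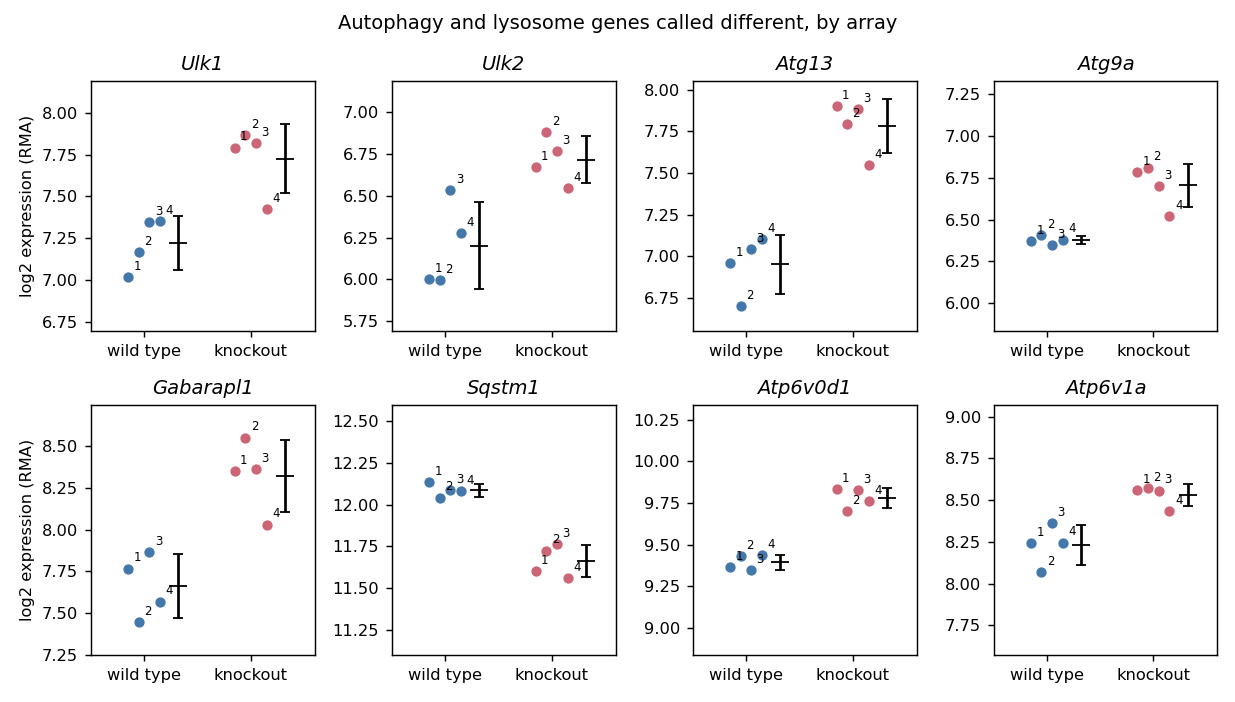
Log2 expression of the 8 genes called different, by array: blue points are the 4 wild type and red points the 4 knockout arrays, numbered by replicate, and the black bars are the mean ± SD (n = 4); each panel spans 1.5 units. Knockout replicate 4 is the lowest knockout array for Ulk1, Ulk2, Atg13, Atg9a, Gabarapl1, Sqstm1 and Atp6v1a.

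Further genes of autophagosome formation were taken from a list of 28, all of which were tested. Of these 3 rose and 1 fell, 14.3% called where all genes tested gave 13.8%, with a median change of 0.06. The rises were those of Nrbf2 (0.45, SE 0.08, adjusted p = 0.00418) and Uvrag (0.39, SE 0.10, adjusted p = 0.0248), both partners of the Beclin 1 kinase complex, and of Vamp8 (0.42, SE 0.11, adjusted p = 0.0257), a membrane fusion protein that joins autophagosome and lysosome. Picked out once values were known, the tether gene Epg5 fell (-0.43, SE 0.13, adjusted p = 0.0464), a call that ended in 6 of the 8 analyses without 1 array (adjusted p up to 0.112). The Nrbf2 call held in all 18 alternatives, and those of Uvrag and Vamp8 ended in 4 and 3 of them (adjusted p up to 0.0778 and 0.0792).

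Read by complex, a grouping chosen after the values were seen, 3 of the 5 genes of the ULK1 kinase complex rose, where 7.02% of all genes did. The calls of Ulk1 and Ulk2 among them ended in 4 and 5 of the 18 alternatives. The remaining subunit genes, Rb1cc1 (0.30, SE 0.12, adjusted p = 0.151) and Atg101 (-0.22, SE 0.08, adjusted p = 0.117), did not pass and had changes of opposite sign. Of 8 genes of the Beclin 1 kinase complexes 2 rose, and its catalytic subunit gene Pik3c3 (-0.10, SE 0.11, adjusted p = 0.633) and regulatory subunit gene Pik3r4 (-0.13, SE 0.12, adjusted p = 0.549) did not pass.

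None of the 6 conjugation enzyme genes passed the test, where 13.8% of all genes tested did, and their median change was 0.14. Atg12, the ubiquitin-like protein joined to ATG5, read 7.30, 7.14, 7.38 and 7.19 in wild type and 7.63, 7.66, 7.70 and 7.26 in knockout replicates 1 to 4. Only knockout replicate 4 fell within the wild type range. The change was 0.31 (SE 0.11, adjusted p = 0.0983), and without that array it was 0.41 and passed (adjusted p = 0.0124), as it also did with array weights, cyclic loess and quantile normalization. Atg5 ran from 7.63 to 7.85 in wild type and from 7.89 to 7.97 in knockout, with a change of 0.17 (SE 0.08, adjusted p = 0.220).

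The ligase-side gene Atg16l1 had a change of 0.12, the E2-like Atg3 of 0.09, the E2-like Atg10 of 0.27 and the E1-like Atg7 of -0.04, all with overlapping groups and adjusted p-values of 0.396 or more. The 95% intervals of the 6 genes ran from -0.23 to 0.66 in all. The upper end belongs to Atg10, whose knockout arrays ranged from 4.92 to 5.80. The ATG4 proteases trim ATG8 proteins before conjugation and are outside the 38. Their 4 genes had changes of 0.17 to 0.24 and none passed, where 13.8% of all genes tested did.

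Among the 5 ATG8 genes, 1 rose and 4 did not pass, where 7.02% of all genes tested rose. Gabarapl1 read 7.77, 7.45, 7.87 and 7.57 in wild type and 8.35, 8.55, 8.36 and 8.03 in knockout replicates 1 to 4. All knockout arrays were above all wild type arrays, with replicate 4 the nearest to them. The change was 0.66 (SE 0.13, 95% interval 0.38 to 0.95, adjusted p = 0.00607), or 1.58-fold, and it was called in all 18 alternatives with changes of 0.59 to 0.76.

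For the other ATG8 genes the changes lay between -0.12 and 0.15. Gabarap ran from 11.27 to 11.39 in wild type and from 11.35 to 11.43 in knockout (change 0.05, SE 0.08, adjusted p = 0.760), a sign that vanished with quantile normalization (-0.0010). A second row of Gabarap gave 0.18. Map1lc3b, the gene of the widely used autophagosome marker LC3B, ran from 8.61 to 8.95 and from 8.77 to 9.13 (0.15, SE 0.11, adjusted p = 0.423), and Map1lc3a had 0.06 (SE 0.09, adjusted p = 0.755), with the sign turned without wild type replicate 3 (-0.0027). Gabarapl2 had -0.12 (SE 0.09, adjusted p = 0.432). The intervals of these 4 genes, from -0.31 to 0.40, do not reach the estimate of Gabarapl1. That of Map1lc3b overlaps the Gabarapl1 interval of 0.38 to 0.95, and the difference between Gabarapl1 and the other ATG8 genes was not tested.

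Sqstm1 was the only one of the 38 genes called lower. It encodes p62, which binds ubiquitinated cargo, is itself degraded by autophagy, and is also a target of the stress factor NRF2. Its values were 12.14, 12.04, 12.09 and 12.08 in wild type and 11.60, 11.72, 11.77 and 11.56 in knockout replicates 1 to 4. All knockout arrays were below all wild type arrays, and the wild type arrays spanned less than the knockout ones. The change was -0.42 (SE 0.08, 95% interval -0.61 to -0.24, adjusted p = 0.00667), a 1.34-fold fall, and it was called in all 18 alternatives. Nbr1, a receptor of the same architecture, ran from 7.22 to 7.74 in wild type and from 7.40 to 7.70 in knockout (0.11, SE 0.13, adjusted p = 0.655).

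Of 15 tested further receptor genes 4 rose and 1 fell, 33.3% called beside 13.8% of all genes tested, with a median change of 0.08. Retreg1, a receptor for endoplasmic reticulum, had 9.63 ± 0.12 in wild type and 10.19 ± 0.12 in knockout (change 0.56, SE 0.10, adjusted p = 0.00302). Tollip, a ubiquitin-binding adaptor, rose by 0.53 (SE 0.09, adjusted p = 0.00226), and Ncoa4, the receptor for ferritin, rose by 0.52 (SE 0.10, adjusted p = 0.00634). These calls held in all 18 alternatives. Named after their values were seen, the mitochondrial receptor gene Bnip3 rose by 0.47 (SE 0.12, adjusted p = 0.0193) and Fundc1, another one, fell by 0.38 (SE 0.10, adjusted p = 0.0238), and each lost its call in 4 of the analyses that leave out 1 array. Receptor genes therefore moved in both directions, with Sqstm1 and Fundc1 lower on the same arrays on which 4 others were higher.

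Neither transcription factor gene passed, where 13.8% of all genes tested did. Tfeb was the dimmest of the 38, at 3.65 ± 0.26 in wild type and 3.76 ± 0.31 in knockout (SD, n = 4), close to the filter at 3.32, with a change of 0.11 (SE 0.17, adjusted p = 0.740) whose sign turned without wild type or knockout replicate 3 (-0.0049 and -0.037). Tfe3 ran from 7.82 to 8.01 and from 7.78 to 7.92, with a change of -0.03 (SE 0.08, adjusted p = 0.865) that turned to 0.0099 without wild type replicate 2. Both factors are regulated mainly by their location in the cell, which RNA does not show.

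The genes that regulate mTORC1 and TFEB at the lysosome were a list of 28, of which 26 were tested. Of these 5 rose and 2 fell, 26.9% called beside 13.8% of all genes, with a median change of 0.04. Nprl2, a subunit of a complex that restrains mTORC1 when amino acids are scarce, rose by 0.42 (SE 0.10, adjusted p = 0.0169). Fnip2, a folliculin partner, rose by 0.45 (SE 0.11, adjusted p = 0.0182), and the Ragulator gene Lamtor3 rose by 0.38 (SE 0.09, adjusted p = 0.0198). The Nprl2, Fnip2 and Lamtor3 calls ended in 1, 3 and 4 of the 8 analyses without 1 array.

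Named after their values were seen, the folliculin gene Flcn (0.41, SE 0.10, adjusted p = 0.0217) and Fnip1 (0.51, SE 0.15, adjusted p = 0.0474) also rose. All 3 genes of the folliculin complex, which controls TFEB through the Rag GTPases, were thus called higher, where 7.02% of all genes were. The Flcn call ended in 5 of the 8 analyses without 1 array. In groupings also made after the values were seen, 1 of 8 tested Ragulator and Rag GTPase genes rose. In GATOR1, the complex of Nprl2, 1 of 3 rose. The falls were those of the mTORC1 subunit genes Rptor (-0.34, SE 0.10, adjusted p = 0.0429) and Deptor (-0.54, SE 0.16, adjusted p = 0.0454), the former encoding a required scaffold and the latter an inhibitor of the kinase. The Fnip1 and Rptor calls each ended in 7 and the Deptor call in 6 of the 8 analyses without 1 array, with adjusted p-values of up to 0.114, 0.114 and 0.113.

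The lysosomal enzymes showed no call among 7 genes, where 13.8% of all genes tested were called, and their median change was 0.0041. Ctsa, the gene of cathepsin A, which protects other hydrolases in a complex, read 9.31, 9.36, 9.497 and 9.45 in wild type and 9.69, 9.66, 9.73 and 9.53 in knockout replicates 1 to 4. The groups did not overlap, with knockout replicate 4 just above wild type replicate 3. The change was 0.25 (SE 0.09, adjusted p = 0.0896), and it passed without knockout replicate 4 (0.29, adjusted p = 0.0459), with array weights, with cyclic loess and with an intensity trend. Neu1, the gene of the sialidase that works in a complex with cathepsin A, had a change of 0.12 (SE 0.08, adjusted p = 0.406) and no overlap.

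The main cathepsin genes did not pass. Ctsd, which encodes the aspartic protease cathepsin D, had a change of 0.0041 with a 95% interval of -0.18 to 0.19, and its sign turned in 5 alternatives. Ctsb, a cysteine protease gene, had -0.09 with an interval of -0.28 to 0.10. Ctsl, another, had -0.19 (SE 0.09, adjusted p = 0.197, interval -0.38 to 0.0044) and passed only with an intensity trend (adjusted p = 0.0494, or 0.0480 with robust variances). Gaa, the gene of acid glucosidase, which degrades lysosomal glycogen, had 0.14 (SE 0.10), and Hexa, a hexosaminidase subunit gene, had -0.02 (SE 0.11), with the sign turned without knockout replicate 2 (0.057) or 3 (0.0022). The intervals of all 7 genes lay within -0.38 to 0.44.

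Among 29 further tested hydrolase genes 3 rose and 3 fell, 20.7% called beside 13.8% of all genes, and the median change was 0.0094. Hgsnat, a membrane enzyme of heparan sulfate breakdown, fell by 0.45 (SE 0.08, adjusted p = 0.00340), while Naglu, which acts in the same breakdown, rose by 0.49 (SE 0.10, adjusted p = 0.00819). The sphingomyelinase gene Smpd1 rose by 0.41 (SE 0.10, adjusted p = 0.0189). Named after their values were seen, Galc rose (0.31, SE 0.09, adjusted p = 0.0331) and the protease genes Lgmn (-0.34, SE 0.08, adjusted p = 0.0213) and Ctsc (-0.36, SE 0.10, adjusted p = 0.0303) fell. The Hgsnat and Naglu calls held in all 18 alternatives, and the Galc, Ctsc, Smpd1 and Lgmn calls ended in 7, 6, 4 and 2 of the 8 analyses without 1 array. Ctsc and Lgmn are also expressed by macrophages, whose markers were lower for 11 of 13 genes on these arrays, and the part of those cells was not tested.

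The 3 lysosomal membrane genes did not pass, where 13.8% of all genes tested did. Lamp1 ran from 11.20 to 11.28 in wild type and from 11.08 to 11.25 in knockout (change -0.04, SE 0.08, adjusted p = 0.795), and Lamp2 from 9.47 to 9.74 and from 9.52 to 9.69 (-0.04, SE 0.09, adjusted p = 0.826). Both encode the abundant glycoproteins that coat the inner lysosomal membrane. Mcoln1, the gene of the lysosomal calcium channel that acts upstream of TFEB, read 8.10, 7.93, 8.26 and 8.27 in wild type and 8.37, 8.26, 8.26 and 8.38 in knockout replicates 1 to 4. The groups met at 8.26 to 8.27, and the change was 0.18 (SE 0.10, adjusted p = 0.287).

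Of 29 further genes of the lysosomal membrane and of sorting to it 2 rose and 1 fell, 10.3% called, below the 13.8% of all genes. Ctns, the gene of the cystine exporter, rose by 0.69 (SE 0.12, adjusted p = 0.00332) from 7.59 ± 0.15 to 8.28 ± 0.22. Pip4p1, which encodes a lysosomal phosphatase also called TMEM55B that helps place lysosomes in the cell, rose by 0.64 (SE 0.10, adjusted p = 0.00124). Npc1, the cholesterol export gene, fell by 0.73 (SE 0.13, adjusted p = 0.00264) from 9.87 ± 0.12 to 9.14 ± 0.24, the largest fall among these lists, and by 0.50 with the mean of the rows of a gene. All these calls held in the 18 alternatives.

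The proton pump was the other group with several calls. All 4 of its genes had changes above 0, as did 45.2% of all genes tested, and the median change was 0.24. Of the 4 genes 2 rose, where 7.02% of all genes did, and the Atp6v1a call ended in 9 of the 18 alternatives. Atp6v0d1, a subunit that couples the membrane sector to the catalytic head, read 9.37, 9.43, 9.35 and 9.44 in wild type and 9.83, 9.70, 9.83 and 9.76 in knockout replicates 1 to 4. The groups were well separated and knockout replicate 4 lay inside its own group. The change was 0.39 (SE 0.08, 95% interval 0.21 to 0.56, adjusted p = 0.00846), or 1.31-fold, and it was called in all 18 alternatives.

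Atp6v1a, the catalytic subunit gene of the pump, read 8.24, 8.07, 8.36 and 8.25 in wild type and 8.56, 8.57, 8.56 and 8.44 in knockout replicates 1 to 4. The groups did not overlap, with wild type replicate 3 and knockout replicate 4 nearest to each other. The change was 0.30 (SE 0.09, adjusted p = 0.0484), right at the threshold, and the call ended in 9 of the 18 alternatives, among them 6 of the 8 analyses without 1 array (replicates 1 and 2 of both genotypes, wild type 4 and knockout 3, adjusted p up to 0.123), without the filter on dim genes and with median centring. Atp6v1h, a regulatory subunit gene, ran from 8.72 to 8.85 and from 8.91 to 8.97 without overlap (0.17, SE 0.08, adjusted p = 0.192), and the accessory gene Atp6ap1 had 0.09 (SE 0.09, adjusted p = 0.602).

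Of 15 further pump genes tested 2 rose and 0 fell, 13.3% called, close to the 13.8% of all genes. The 2 were Atp6v1b2 (0.33, SE 0.09, adjusted p = 0.0297) and Atp6v1e1 (0.30, SE 0.08, adjusted p = 0.0350), both of the catalytic V1 sector, and Atp6v1d of that sector did not pass (0.20, SE 0.08, adjusted p = 0.130). The Atp6v1b2 call ended in 10 and the Atp6v1e1 call in 7 of the 18 alternatives, with adjusted p-values of up to 0.0858 and 0.104. Over the whole pump, a grouping made after the values were seen, 4 of 19 tested genes rose, 0 fell and 14 had a change above 0. Of all genes tested, 7.02% rose, 6.76% fell and 45.2% had a change above 0. In the V1 sector 3 of 10 rose with a median of 0.19, and in the membrane V0 sector with its accessory proteins 1 of 9 with a median of 0.03, a difference that was not tested.

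**Figure D3:**
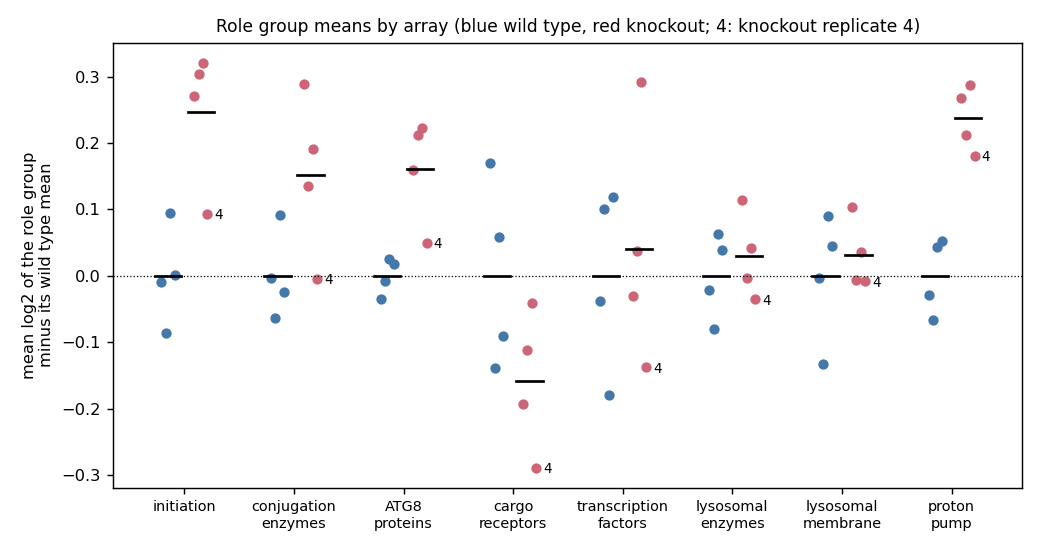
Mean log2 expression over the genes of each role group, by array, relative to the wild type mean of that group: blue points are wild type and red points knockout arrays, black bars the group means, and 4 marks knockout replicate 4. Only the ATG8 proteins and the proton pump have knockout arrays that all lie above all wild type arrays, by group means of 0.16 and 0.24, and the ATG8 groups overlap when Gabarapl1 is left out.

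Averaged over each role, the arrays show how far single samples carried the pattern. The 4 pump genes averaged 8.99 to 9.10 in wild type and 9.23 to 9.34 in knockout arrays, without overlap. The 5 ATG8 genes averaged 8.22 to 8.28 in wild type and 8.30 to 8.48 in knockout, also without overlap, but this rested on Gabarapl1. Without it, a choice made after the values were seen, the other 4 averaged 8.33 to 8.45 and 8.37 to 8.51 and overlapped, with a difference of 0.036 in place of 0.16. The 9 initiation genes averaged 6.71, 6.64, 6.82 and 6.73 in wild type and 6.995, 7.03, 7.05 and 6.82 in knockout replicates 1 to 4, so that knockout replicate 4 reached only the level of wild type replicate 3. The conjugation enzymes gave the same picture, with knockout replicate 4 at 7.08 among wild type arrays of 7.03 to 7.18 and the other knockout arrays at 7.22 to 7.38. The lysosomal enzymes averaged 9.60 to 9.74 in wild type and 9.64 to 9.79 in knockout and overlapped throughout.

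The promoters of the members were searched for the E-box through which TFEB and TFE3 act. RefSeq windows (GRCm38.p6) of 250 bases before to 50 after a gene's start were at hand for 32 of the 38, and not for Atg12, Atg16l1, Atp6v1h, Becn1, Ctsb and Map1lc3a. Both strands were searched, and the motifs are palindromes that contain each other. The core CACGTG was found in 12 of the 32 genes (37.5%), against 8.09% of all 27025 genes with a window. The longer TCACGTGA, the centre of the CLEAR element, was found in 6 of the 32 (18.8%), against 1.12% of all genes, and the same element with a G before and a C after it in 0 of the 32, against 0.37%. Among the other genes of the pathway TCACGTGA stood in 11 of 126 (8.73%), among them Nrbf2 and Pip4p1. In the further pump genes it stood in 1 of 14 (7.14%). That gene, Atp6v0e, named after its values were seen, did not pass (0.11, SE 0.10, adjusted p = 0.539). A match describes the letters in this window and shows no binding.

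The 6 members with TCACGTGA are shown around the match, which is in capitals, 5′ to 3′ on the strand of the gene, because they include both pump genes that rose. The match begins 72 bases before the start in Atg3, 4 in Atp6v0d1, 132 in Atp6v1a, 99 in Ctsd and 46 in Mcoln1, and Ctsa has a pair, of which the first begins 13 bases before the start.
Atp6v0d1 (chr8:105566039-105566094, minus strand): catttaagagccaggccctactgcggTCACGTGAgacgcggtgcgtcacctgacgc
Atp6v1a (chr16:44139358-44139417, minus strand): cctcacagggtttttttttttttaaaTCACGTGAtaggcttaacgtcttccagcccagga
Ctsa (chr2:164833734-164833793, plus strand): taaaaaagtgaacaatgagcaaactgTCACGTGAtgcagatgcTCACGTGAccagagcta
Ctsd (chr7:142387893-142387952, minus strand): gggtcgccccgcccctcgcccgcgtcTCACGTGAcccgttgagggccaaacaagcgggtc
Mcoln1 (chr8:3500447-3500506, plus strand): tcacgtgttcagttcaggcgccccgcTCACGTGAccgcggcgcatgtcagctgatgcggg
Atg3 (chr16:45158731-45158790, plus strand): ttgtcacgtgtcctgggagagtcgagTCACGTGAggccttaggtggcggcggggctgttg

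The expression of these 6 genes varied. Atp6v0d1 (0.39) and Atp6v1a (0.30) rose, Ctsa (0.25), Mcoln1 (0.18) and Atg3 (0.09) did not pass, and Ctsd stood at 0.0041. The median was 0.21 over the 6 and 0.10 over the 26 members whose windows lack the motif. For the core CACGTG it was 0.15 over the 12 members with it and 0.10 over the 20 without. These differences were not tested. The 5 other members called higher, Ulk1, Ulk2, Atg13, Atg9a and Gabarapl1, and the falling Sqstm1 have no CACGTG in their windows. The forkhead motif GTAAACA was found in 0 of the 32 members (4.05% of all genes) and TGACNNNGC, the core of the antioxidant element, in 6 (18.8%, against 14% of all genes), of which Atg13, Ulk2 and Atp6v1a were called higher.

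**Figure D4:**
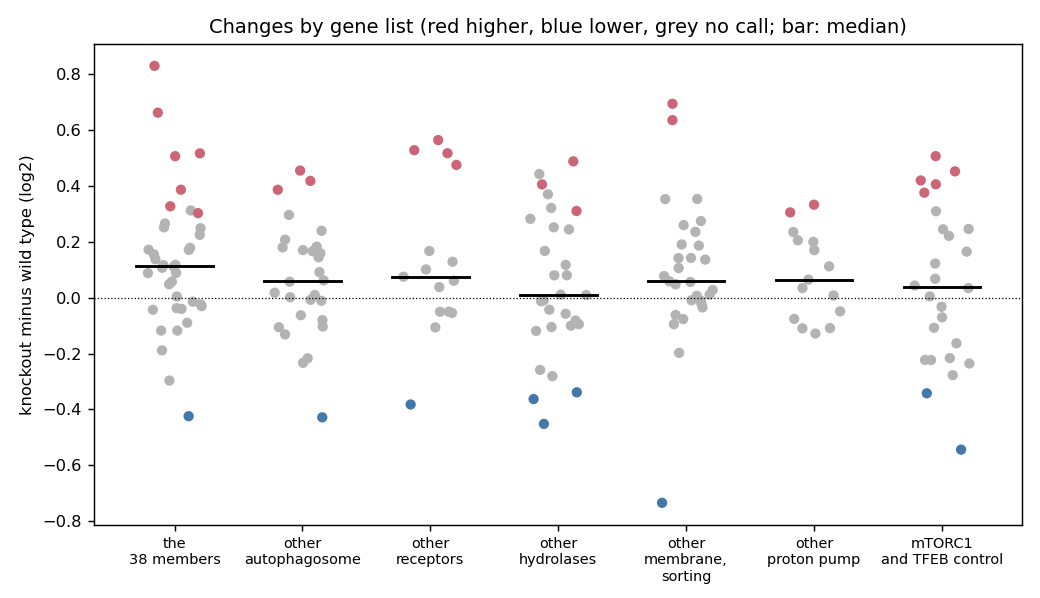
Changes (log2, knockout minus wild type) of the 38 genes and of 6 further lists; each point is a gene, red called higher, blue called lower and grey without a call, and the black bar is the median of the list. Medians run from 0.0094 for the other hydrolases to 0.11 for the 38 genes, and every list but the other proton pump genes holds calls in both directions.

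Over the 6 further lists together, 142 genes were tested, of which 19 rose and 8 fell, with a median change of 0.06. That is 13.4% higher and 5.63% lower, beside 7.02% and 6.76% of all genes. The latter shares were 11.2% and 11.4% with the filter on dim genes at the 60th percentile. Leaving out 1 array gave 8 (knockout replicate 1) to 24 (knockout replicate 4) higher, where 4.97% and 8.05% of all genes were called higher. It gave 2 (wild type replicate 1) to 7 (knockout replicate 3) lower, where 4.25% and 6.45% of all genes were called lower. The count lower was 5 without the filter and 3 with median centring, where 3.53% and 4.64% of all genes were called lower. Of the 27 calls 9 held in all 18 alternatives, namely those of Nrbf2, Tollip, Retreg1, Ncoa4, Hgsnat, Naglu, Pip4p1, Npc1 and Ctns, 7 of them rises and 2 falls. On the same arrays 10 of 14 tested hepatocyte markers were higher and 11 of 12 endothelial markers lower, and their part in these counts was not tested.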

How the data were processed

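Total RNA of 8 hepatocyte samples was hybridised to gene arrays with biotin labelling, per the labels. The deposited table holds log2 expression of 41345 rows, made by the authors with RMA through oligo, per the submitters' processing notes (no version is stated there). Because the method equalises array distributions, a shift shared by all genes would be lost, and differences of dim genes are compressed. Rows were named by the platform annotation where it gave 1 symbol (23521 rows; 1814 had several, 16010 none), and the row of highest mean was kept per gene. Genes above the 40th percentile of row means (3.32) were tested with limma 3.58.1 in R 4.3.3, without trend, adjusting over 15380 genes, two-sided, threshold 0.05; ± is the SD over 4 arrays. On simulated data with independent noise and 200 genes changed, 41.2%, 90% and 100% of genes changed by 0.5, 1 and 2 were called, and 3.33% of calls fell on genes not changed. In the measured data many more genes, 2119, were called, so these shares need not hold there. Members, lists and tests were chosen with earlier results of these data known. Named genes are all members and the 3 of smallest p per further list. Of the markers only the brightest of the hepatocyte list, Alb, and of the Kupffer list, Cd68, are named. Others are marked. Tmem55b was matched as Pip4p1. Further genes without a row were not analysed here. The 18 alternatives changed the filter, row rule, normalization, variance model, array weights or block, or left out 1 array. Other steps used Python 3.11.15.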

Additional observations from a re-analysis of the deposited data

Results flagged for a closer look

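In 94 groups of 4 arrays examined (38 genes and 9 means over genes, in each genotype), 9 had 1 array far from the other 3 by Dixon's criterion, which chance flags in about 1 group of 20. Knockout replicate 4 was low for Ulk1 (7.422, others 7.793 to 7.869), Atg12 (7.262, others 7.632 to 7.695) and Atp6v1a (8.435, others 8.558 to 8.574). Wild type replicate 2 was low for Atg2a (6.994, others 7.257 to 7.269), Atg3 (8.036, others 8.172 to 8.192), Atg7 (7.256, others 7.43 to 7.458) and Ctsl (10.83, others 10.99 to 11.02). Wild type replicate 4 was low for Wipi1 (5.54, others 5.877 to 5.941), and knockout replicate 3 was high for Wipi2 (8.256, others 8.129 to 8.14). Knockout replicate 4 is also the array set apart in the next principal component, and it had the lowest array weight, 0.375 against 0.879 to 1.57.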

How the results depend on the processing

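All 8 role medians moved by less than 1 SD in each of the 18 alternatives, and 31 of 38 genes kept their sign in all of them. This SD is that of the role mean over the arrays of a genotype, the larger of the 2 genotypes. It exceeded the median itself in some groups, at 0.18 against 0.04 for the transcription factors and 0.065 against 0.0041 for the lysosomal enzymes. For such groups it does not show that the sign was kept. Of the 8 calls 4 held throughout (Atg13, Gabarapl1, Sqstm1, Atp6v0d1), and of the 30 genes without a call 4 gained one in some alternative (Becn1, Atg12, Ctsa, Ctsl). Leaving out 1 array gave 3 to 9 members higher in the knockout. Of all genes tested, 4.97% to 8.05% were then called higher and 4.25% to 6.45% lower, the latter being 654 (wild type replicate 1) to 992 genes. In the further lists 8 to 24 calls were higher and 2 to 7 lower, with 8 higher without knockout replicate 1 and 2 lower without wild type replicate 1. The further lists had 5 lower without the filter and 3 with median centring, where 3.53% and 4.64% of all genes were called lower. An intensity trend, robust or not, gave 2 members lower in place of 1, where 8.77% or 8.73% of all genes were called lower. With array weights Atg2a had 0.039 and with cyclic loess 0.0059, and with quantile normalization Gabarap had -0.0010 and Ctsd -0.0062. Among analyses without 1 array, Atg2a ran from -0.082 to 0.084, Map1lc3a from -0.0027 to 0.10, Tfeb from -0.037 to 0.20, Tfe3 from -0.052 to 0.0099, Ctsd from -0.028 to 0.033 and Hexa from -0.084 to 0.057. Same-numbered samples did not deviate together in every pair (correlations of 0.0613, 0.0196, 0.263 and 0.207, own number best for 2 of 4), so numbers were not taken as pairs; with the replicate number as a block 6 members were higher and 1 lower, the calls of Atp6v1a and, in the further lists, of Galc, Atp6v1b2, Rptor and Fnip1 were lost (adjusted p of 0.0682, 0.0543, 0.0612, 0.0568 and 0.0542), and 1082 and 1133 of all genes were called higher and lower. The causes were not tested. With 4 arrays a group, a change of 0.5 can be missed, and RMA gives no depth per gene. Tfeb, close to the filter, has no value under the 60th percentile filter.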
